A study of Mus musculus with 9 samples.

Results

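The promoters of long noncoding RNA (lncRNA) genes were examined for DNA methylation in cultured brown and white fat cells, before and during differentiation. A promoter was the window from 1000 bp upstream to 500 bp downstream of an annotated transcription start. A window counted as a lncRNA promoter when its gene was typed lincRNA or processed transcript in GENCODE vM1, which has no antisense type for genes, when it held at least 2 measured cytosines, and when it lay outside the 4 Hox clusters. This gave 1279 promoters of 1233 genes, out of 13412 measured promoters of 12459 genes, of which 11918 belonged to protein-coding genes and 199 to microRNA genes. Genes typed lincRNA held 685 of them, and the rest were split by the type of their transcripts into 377 antisense and 217 processed transcript promoters. The lincRNA class is not purely intergenic, since some of its starts, such as those of Airn and Gm17262, lie inside a coding gene on the opposite strand. Another 16 lncRNA promoters inside the Hox clusters were left out. Only 31.7% of the 4031 lncRNA windows on the autosomes held enough cytosines, and 42 of the measured ones shared cytosines with another lncRNA promoter.

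Methylation was measured by reduced representation bisulfite sequencing (RRBS), which reads CpG-rich fragments cut by restriction enzymes and scores each cytosine as methylated or not. Preadipocytes came from the stromal fraction of fat of 8 BL6 mice killed at 3 weeks of age. Day 0 is the preadipocyte stage, and cells of later days had been induced with insulin, dexamethasone, isobutylmethylxanthine and rosiglitazone. Later days therefore differ from day 0 in time and in exposure to this mixture, which cannot be told apart. The 4 brown libraries, from interscapular fat, were BAT at days 0, 4 and 6 and BAT + NE, cells of day 6 given norepinephrine (NE) for 4 h. The 5 white libraries, from inguinal fat, were BWAT at days 4 and 6, differentiated with NE present, and WAT of the same 3 days as BAT. NE, released by sympathetic nerves, switches on heat production in brown fat and can induce brown-like features in white fat. Each condition was 1 library, and the labels do not state whether days came from separate cultures. The p-values given here therefore cover the spread between these libraries alone. RNA was not analysed here, and the cell types were not checked against the expression of their markers.

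A lncRNA is a transcript with no long open reading frame, and many act near their own gene by opening or closing chromatin, by guiding proteins to DNA or simply by being transcribed across an enhancer. Methylation of CpGs at a promoter is generally tied to low transcription from CpG-rich starts, while CpG-poor promoters are often methylated in many tissues. Antisense transcripts run against a coding gene, and divergent lncRNAs start beside a coding gene and leave in the opposite direction, so that both share a single promoter region.

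DNA from 9 of the promoters described below is given first, since each of them rests on a few CpGs and these differed between cell types or days. They were read from NCBIM37, the assembly behind mm9, and run 5′ to 3′ along the strand of the lncRNA, with the measured CpGs in capitals. The first 3 were less methylated in brown cells, the next 4 were more methylated in brown cells, and the last pair differed between later days and day 0. Positions are counted from the transcription start, with negative numbers upstream. The stretches are chr6:6780574-6780739 (minus strand, bases 52 to 217 of Dlx6os1), chr19:58278052-58278212 (plus strand, −577 to −417 of Gm16277), chr1:38441805-38441906 (plus strand, 11 to 112 of Gm16152), chr13:52068820-52068969 (plus strand, 237 to 386 of Gm16767), chr4:147378621-147378803 (minus strand, −680 to −498 of Gm13054), chr2:52241284-52241504 (plus strand, −152 to 68 of Gm13522), chr3:34555702-34555818 (plus strand, 343 to 459 of Sox2ot), chr15:77791104-77791201 (plus strand, −1000 to −903 of Gm17638) and chr4:131476109-131476269 (minus strand, −325 to −165 of Gm12992).
Dlx6os1: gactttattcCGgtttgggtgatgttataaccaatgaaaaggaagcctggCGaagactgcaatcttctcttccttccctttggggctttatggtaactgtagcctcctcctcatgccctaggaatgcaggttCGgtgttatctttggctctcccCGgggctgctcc
Gm16277: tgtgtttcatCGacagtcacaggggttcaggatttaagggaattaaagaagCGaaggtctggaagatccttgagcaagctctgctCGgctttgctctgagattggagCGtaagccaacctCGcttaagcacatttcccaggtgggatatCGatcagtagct
Gm16152: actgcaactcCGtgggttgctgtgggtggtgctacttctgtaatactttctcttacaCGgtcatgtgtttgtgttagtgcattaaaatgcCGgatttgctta
Gm16767: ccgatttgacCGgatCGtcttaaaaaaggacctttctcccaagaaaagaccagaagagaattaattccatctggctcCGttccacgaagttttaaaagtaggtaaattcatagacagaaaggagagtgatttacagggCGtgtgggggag
Gm13054: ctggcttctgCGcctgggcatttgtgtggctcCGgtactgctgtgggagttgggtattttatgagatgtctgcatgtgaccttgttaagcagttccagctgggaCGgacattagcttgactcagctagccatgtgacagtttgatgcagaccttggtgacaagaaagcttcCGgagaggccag
Gm13522: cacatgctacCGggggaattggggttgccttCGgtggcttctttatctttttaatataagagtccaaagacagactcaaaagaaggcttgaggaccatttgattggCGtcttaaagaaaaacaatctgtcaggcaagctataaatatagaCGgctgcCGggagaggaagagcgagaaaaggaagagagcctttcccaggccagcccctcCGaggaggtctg
Sox2ot: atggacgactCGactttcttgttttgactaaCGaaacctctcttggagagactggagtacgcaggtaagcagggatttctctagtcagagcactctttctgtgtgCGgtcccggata
Gm17638: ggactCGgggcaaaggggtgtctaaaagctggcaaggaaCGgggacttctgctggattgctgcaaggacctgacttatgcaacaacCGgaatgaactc
Gm12992: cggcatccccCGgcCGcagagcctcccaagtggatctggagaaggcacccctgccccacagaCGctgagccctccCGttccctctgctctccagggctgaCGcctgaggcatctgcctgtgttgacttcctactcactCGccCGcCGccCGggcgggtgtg

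These stretches held 3 to 9 measured CpGs each. Those of Dlx6os1, Gm16277, Gm16152, Gm16767 and Gm12992 covered every measured CpG of their promoters. The stretch of Gm13054 held 4 of 5, that of Gm13522 6 of 7, that of Sox2ot 3 of 7 and that of Gm17638 3 of 8.

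Most lncRNA promoters had a mean level under 10%, and levels were higher where no cytosine was shared with a coding promoter. Averaged over the 9 libraries, the median level of a lncRNA promoter was 2.01%, against 1.27% for protein-coding promoters and 1.32% for all. Of the 1279, 848 (66.3%) lay under 10%, 227 (17.7%) between 10 and 70%, and 204 (15.9%) over 70%, against 80.4%, 10.5% and 9.15% of the coding promoters. The medians of single libraries ran from 1.92% in BWAT day 4 to 2.37% in BAT + NE. The classes had medians of 1.4% for lincRNA, 5.35% for antisense and 19.5% for processed transcript promoters.

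The level of a lncRNA promoter went with its distance from a coding start. There were 647 promoters with at least 1 cytosine that also lay in the promoter window of a coding gene, and for 473 of them this held for every cytosine, so that their values are also those of a coding promoter. Their median was 1.12%. The 632 promoters with no shared cytosine had a median of 27.8%, with 39.4% of them under 10% and 30.5% over 70%. At the 425 promoters with a coding gene starting divergently within 1000 bp the median was 1.07%, and at the 370 whose nearest coding start was over 10000 bp away it was 45.2%. CpG content moved along with this: the observed over expected number of CpGs was 0.692 at the median of promoters with shared cytosines and 0.389 at that of the rest. Of the 1279 promoters, 626 had a start inside the body of a coding gene.

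**Figure D1:**
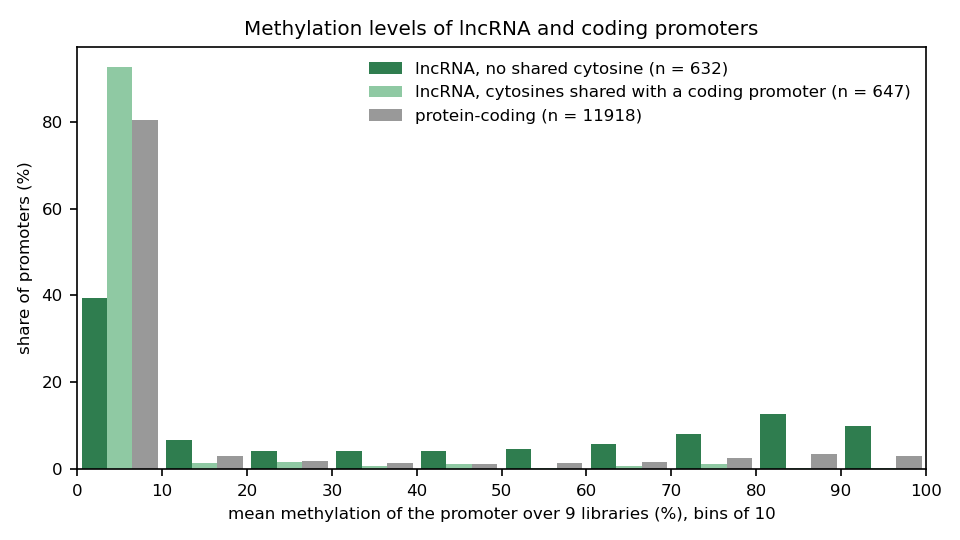
Share of promoters (y axis, %) in each 10-point bin of mean methylation over the 9 libraries (x axis, %), for lncRNA promoters without shared cytosines, lncRNA promoters that share cytosines with a coding promoter, and protein-coding promoters. The lowest bin held 39.4%, 92.6% and 80.4% of them, and the 2 bins from 80 to 100% held 12.7% and 9.81% of the lncRNA promoters without shared cytosines.

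Of a list of snoRNA hosts and broadly transcribed lncRNAs, 10 genes with 11 promoters were measured, and 10 of the promoters lay under 10%. They included Malat1 and Neat1, abundant nuclear RNAs, at 0.822% and 1.73%, and Gas5, which hosts snoRNAs and responds to growth arrest, at 0.963%. The exception among these 11 was the snoRNA host Snhg12, at 57.5%. It had 51.9 to 60.5% in the brown and 55.6 to 60.6% in the white libraries. Gm11974, the gene of the snoRNA host Snhg15, was not counted with the list. Its mean level was also over 10%, and it is described below. Of noncoding RNAs studied in fat cells, 5 genes were measured (Neat1, Malat1, Gas5, Meg3 and Dio3os), and all of them also stand on another list. None of the promoters counted on these 2 lists was called in the brown-white limma test described below. Malat1 and Snhg7 had an unadjusted p under 0.05 there. 2700023E23Rik, the gene of the lncRNA Dancr, was counted with neither list, and it was called.

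Imprinted noncoding RNAs are transcribed from the maternal or the paternal copy alone, and 7 promoters of 5 such genes were measured, with a median of 40.5%. Airn, which runs against Igf2r and silences it in cis, had 31.9, 31.0 and 39.7% in BAT at days 0, 4 and 6, 46.4% in BAT + NE, 33.6 and 41.9% in BWAT at days 4 and 6, and 50.7, 41.2 and 48.3% in WAT at the 3 days. Nespas, the antisense RNA of the Gnas cluster, lay between 42.2 and 44.6% in the brown and between 32.3 and 44.1% in the white libraries. Meg3, a maternally expressed RNA, had mean levels of 67.5% and 93.4% at its 2 measured windows, while Dio3os had 8.7% and Igf2as 2.92% and 5.19%. Brown and white libraries overlapped at Airn and Nespas, and limma called no imprinted promoter between cell types, with 0 at an unadjusted p under 0.05.

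Differences between brown and white cells were tested for all 13412 promoters in 1 limma fit with terms for cell type and for later days against day 0. All brown libraries came from interscapular and all white ones from inguinal fat, so cell type and depot cannot be told apart, a limit the paper also names. The response was log2((level + 1)/(100 − level + 1)), here the log2 methylation ratio, and an adjusted p under 0.05 was called. Of the lncRNA promoters, 28 were called, 14 higher and 14 lower in brown. That was 2.19% of them, against 1.07% of all promoters, 0.403% being higher and 0.671% lower. At the 28 promoters no brown library overlapped a white one. Over all lncRNA promoters, 83 (6.49%) had no such overlap, 35 with brown higher and 48 with brown lower, against 4.22% of all promoters. The called differences ran from 4.81 to 37.0 percentage points.

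Each of the 28 calls was lost when the fit was limited to the 6 BAT and WAT libraries without NE with day as a factor, which pairs BAT and WAT by day. There 133 lncRNA promoters (10.4%, against 7.96% of all promoters) had an unadjusted p under 0.05, and in the 9-library fit 160 (12.5%, against 9.33% of all). All 28 kept their direction in the 6-library fit, with log2 differences 0.782 to 1.22 times those of the 9 libraries. That direction was fixed beforehand, since the 6 libraries are among the 9 and no brown one overlapped a white one. Brown minus white in the 6-library fit was −2.67 at Dlx6os1, 2.49 at Gm16767 and 2.15 at Gm13054. With the same 6 libraries and the terms of the 9-library fit, 6 of the 28 remained called. Leaving out BAT day 0, WAT day 0 or WAT day 4 gave 14 calls, leaving out BAT day 6 gave 15, BAT day 4 or BWAT day 6 16, BWAT day 4 17 and BAT + NE 18. The 11 promoters that kept the call with any 1 library left out were Dlx6os1, RP23-76I20.1, Gm16277, Gm16152, 2610307P16Rik, Gm16767, Gm13054, Gm17262, Gm17668, Gm13522 and the upstream window of 8430419K02Rik. Other choices ended single calls. With both strands of a CpG averaged, 9 calls were lost, those of 4930596M17Rik, D030046N08Rik, D330022K07Rik, Gm11963, Gm12454, Gm13530, Gm13703, Gm568 and Sox2ot (limma, adjusted p of 0.0508 to 0.199). With the window cut to 500 bp on each side, Gm13530, Gm13703, D030046N08Rik and Sox2ot were not called (limma, adjusted p of 0.0588 to 0.0788). Gm13054, Gm17668 and Gm11379 kept too few cytosines in that window to be tested. Without the day term D030046N08Rik and B230112J18Rik were not called (limma, adjusted p = 0.0993 and 0.0856). As the DNA of many cells was pooled in a library, other shares of cell types and other methylation within the same cells cannot be told apart. Of 25 coding genes that mark other cells of fat tissue, 9 had a measured promoter. The endothelial gene Pecam1 averaged 48.6% in brown and 72.2% in white libraries (limma, adjusted p = 0.00144), and the promoters of the other 8 genes, including Emr1 and Itgam of macrophages and Tek of endothelium, were not called. The part of such cells in the lncRNA calls was not tested.

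**Figure D2:**
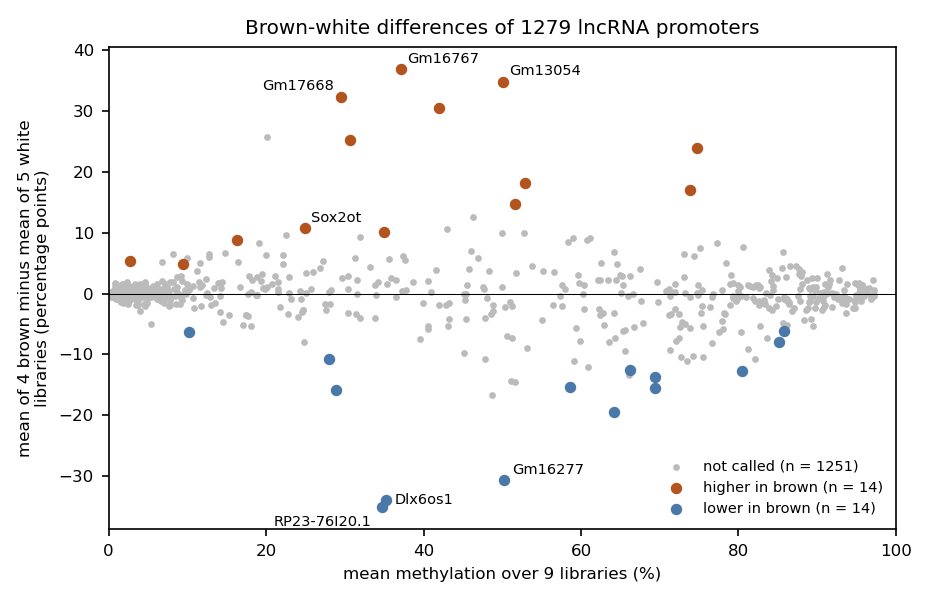
Mean of the 4 brown minus the mean of the 5 white libraries (y axis, percentage points) against the mean level over 9 libraries (x axis, %) for the 1279 lncRNA promoters; the 28 called promoters are coloured by direction. The called differences reach 37.0 points, and promoters near 0 or 100% show small differences.

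Calls came mostly from promoters of middling level, which held few CpGs whether called or not. Among lncRNA promoters between 10 and 90%, 26 of 367 (7.08%) were called, against 84 of 1968 coding promoters (4.27%) of the same range. Among those under 10%, 2 of 848 were called by limma, and among the 64 over 90% none, with 2 of them at an unadjusted p under 0.05. The median observed over expected CpG number was 0.324 at the called promoters and 0.567 at the others. Over all 367 lncRNA promoters between 10 and 90% it was 0.313, so the called ones were not poorer in CpGs than others of their level. Among lncRNA promoters under 0.45 on this measure 4.29% were called, against 3.11% of coding promoters. Of the 28, 27 had no cytosine in a coding promoter. By class, 8 of 685 lincRNA, 12 of 377 antisense and 8 of 217 processed transcript promoters were called, and 9 of the 12 antisense promoters were lower in brown while 6 of the 8 lincRNA promoters were higher.

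The called promoters held 2 to 33 cytosines, and in 20 of the 28 every cytosine differed in the direction of the mean. In 7 of them (Dlx6os1, RP23-76I20.1, Gm16277, Gm16767, Gm13054, Gm17262 and Gm11379) brown and white libraries did not overlap at any cytosine. Both strands of CpGs were measured in 24 called promoters, and in all 24 the mean differences of the forward and of the reverse strand had the sign of the call. These cytosines and strands are the values averaged into the called level, so the counts describe the calls and are no separate support for them. For 12 of the 28 the promoter had 5 or fewer cytosines.

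Developmental transcription factors pattern body regions, and several lncRNAs start beside their genes. Dlx6os1, also known as Evf2 in the mouse brain, is transcribed from a DNA stretch beside the homeobox genes Dlx5 and Dlx6. Its promoter had 15, 12.7 and 15.2% in BAT at days 0, 4 and 6 and 22.6% in BAT + NE, against 46.5 and 46.7% in BWAT at days 4 and 6 and 49.9, 49.6 and 58.8% in WAT at the 3 days. All brown libraries lay below all white ones, and NE-treated libraries lay with their own cell type. The log2 methylation ratio of brown minus white was −2.33 ± 0.22 (SE; limma, adjusted p = 0.00144). The 4 CpGs of the printed stretch each separated the groups, with brown means of 13.8, 26.8, 9.13 and 12.5% against white means of 55.6, 58.4, 46.5 and 36.4% along the strand. No promoter of Dlx6 was measured.

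Sox2ot, which overlaps the gene of the pluripotency factor Sox2, went the other way. It had 32.5, 32.6 and 27.1% in BAT at days 0, 4 and 6 and 31.1% in BAT + NE, against 18.9 and 22.0% in BWAT and 18.3, 20.5 and 20.9% in WAT. The brown libraries were all higher, by 0.80 ± 0.13 on the log2 scale (SE; limma, adjusted p = 0.0212). The printed CpGs had 16.1, 37.7 and 25.3% in brown against 7.32, 15.6 and 12.1% in white. Brown was also higher at −897 (24.1% against 17.5% in white), at −786 (44.7% against 30.2%) and at base 147 (37.6% against 31.5%), and lower at −750 (22.4% against 28.0%). The coding promoter of Sox2, 6301 bp away, averaged 1.46% in both cell types.

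Of the 9 measured genes named for developmental factors, Dlx6os1 and Sox2ot were the only ones called, and 9 of the 11 promoters lay under 10%. These 9, such as Six3os1, Emx2os, Nkx2-2as and Foxl2os, named for factors of eye, brain and ovary, had means of 0.856 to 6.89%. A wider set was drawn by position, 51 lncRNA promoters whose nearest coding start, within 100000 bp, was that of a gene counted as a developmental factor. Nfib, the gene nearest to the called promoter Gm11269, was not counted, so the shares depend on the choice of factors. Of the 51, 4 (7.84%) were called, against 24 of the other 1228 (1.95%), which is a description with no test. The 4 were Dlx6os1, Sox2ot, Gm11379 and 2610307P16Rik, and 38 of the 51 lay under 10%.

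Gm11379 starts 8936 bp from Foxc1, a forkhead factor of mesenchyme. It had 69.7, 44.9 and 60.1% in BAT at days 0, 4 and 6 and 61.1% in BAT + NE, against 24.3 and 31.5% in BWAT and 26.8, 31.2 and 28.3% in WAT. The brown libraries were spread over 24.8 points but stayed above the white ones, and the call rests on 3 cytosines (limma, adjusted p = 0.0131). Foxc1 itself was unmethylated, at 0.707% in brown and 0.739% in white.

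2610307P16Rik, 67686 bp from the neural and lymphoid factor Sox4, was highly methylated in all libraries. It had 77.1, 72.1 and 68.8% in BAT at days 0, 4 and 6 and 75.4% in BAT + NE, against 84.8 and 86.4% in BWAT and 85.1, 87.4 and 86.6% in WAT. The white libraries kept within 2.63 points, and brown was lower at each of the 6 cytosines (limma, adjusted p = 0.00869). The Sox4 promoter averaged 0.936% in brown and 1.18% in white.

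The antisense class made up 9 of the 14 promoters that were lower in brown, and 377 of all 1279 lncRNA promoters. Gm16277, annotated as antisense on chromosome 19, is 250327 bp from its nearest coding start, that of Gfra1, a receptor for glial-derived neurotrophic factor. Its promoter had 28.9, 37.2 and 36.6% in BAT at days 0, 4 and 6 and 29.8% in BAT + NE, against 54.3 and 64.8% in BWAT and 69.0, 68.4 and 62.6% in WAT. The groups did not overlap, and BWAT day 4 was the lowest white library. Brown minus white was −1.81 ± 0.22 on the log2 scale (SE; limma, adjusted p = 0.0055). The CpGs differed widely from each other, at brown means of 18.8 to 54.6% and white means of 45.2 to 82.3%, yet all 10 cytosines gave groups without overlap.

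Gm16152 lies in an intron of Aff3, a nuclear protein of transcription elongation, on the opposite strand. It had 20.3, 18.4 and 22.8% in BAT at days 0, 4 and 6 and 19.1% in BAT + NE, against 33.2 and 36.8% in BWAT and 32.2, 35.1 and 42.6% in WAT. Brown was lower at all 5 cytosines, and the gap was wider at the CpGs farther into the transcript, at 16.9% in brown against 23.2% in white for the first CpG, 18.5% against 38.9% for the next and 29.7% against 55.6% for the last. The Aff3 promoter, 154893 bp away, was at 1.10% in brown and 1.06% in white.

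Gm11269 starts in an intron of Nfib, a factor of lung and brain development, also on the opposite strand. Only 2 cytosines were measured, both inside restriction sites. They averaged 48.6, 53.1 and 49.6% in BAT at days 0, 4 and 6 and 62.0% in BAT + NE, against 72.4 and 71.1% in BWAT and 66.8, 81.4 and 72.5% in WAT (limma, adjusted p = 0.0354). BAT + NE came within 4.75 points of WAT day 0. The Nfib promoter was at 0.816% in brown and 0.943% in white.

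The other antisense promoters that were lower in brown were Gm11963, Gm13703, D330022K07Rik, Gm12454 and 4930596M17Rik. Gm11963, 21819 bp from the stress factor Xbp1, averaged 60.7 ± 6.0% in brown and 76.3 ± 1.3% in white (SD, n = 4 and 5). Gm13703, in an intron of Gpr155, averaged 22.0 ± 3.4% and 32.8 ± 1.2% in the same order, and without restriction-site cytosines its log2 difference of −0.78 became −0.48 and the call was lost (limma, adjusted p = 0.182). D330022K07Rik, the antisense RNA of the adaptor gene Sorbs2, averaged 80.7 ± 3.3% in brown and 88.8 ± 1.1% in white, and 4930596M17Rik, that of Lyzl4, 82.4 ± 1.7% in brown and 88.6 ± 0.6% in white. Gm12454, across an exon of the carbonic anhydrase gene Car9, averaged 6.71 ± 1.59% in brown and 13.04 ± 2.38% in white. Their white libraries were closer together than their brown ones in all but Gm12454.

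Gm13054, an antisense RNA, was higher in brown. It starts 3292 bp from Nppa, the gene of the atrial natriuretic peptide. Its promoter had 71.0, 67.4 and 69.1% in BAT at days 0, 4 and 6 and 70.2% in BAT + NE, against 36.8 and 37.3% in BWAT and 31.2, 32.1 and 35.3% in WAT. Both groups were tight, and all 8 cytosines separated them. Brown was higher by 2.07 ± 0.12 on the log2 scale (SE; limma, adjusted p = 0.000164). No promoter of Nppa was measured.

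Gm13522, antisense and 38985 bp from the small GTPase gene Arl5a, had 48.7, 44.0 and 39.1% in BAT at days 0, 4 and 6 and 46.8% in BAT + NE, against 19.2 and 21.7% in BWAT and 19.6, 15.9 and 20.9% in WAT. Brown was higher at all 11 cytosines, by 1.69 ± 0.15 on the log2 scale (SE; limma, adjusted p = 0.00103). Its CpGs spanned the start, and both groups were less methylated at the start than upstream. At −142 brown averaged 79.3% and white 44.8%, and at base 5 brown averaged 28.0% and white 11.6%.

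**Figure D3:**
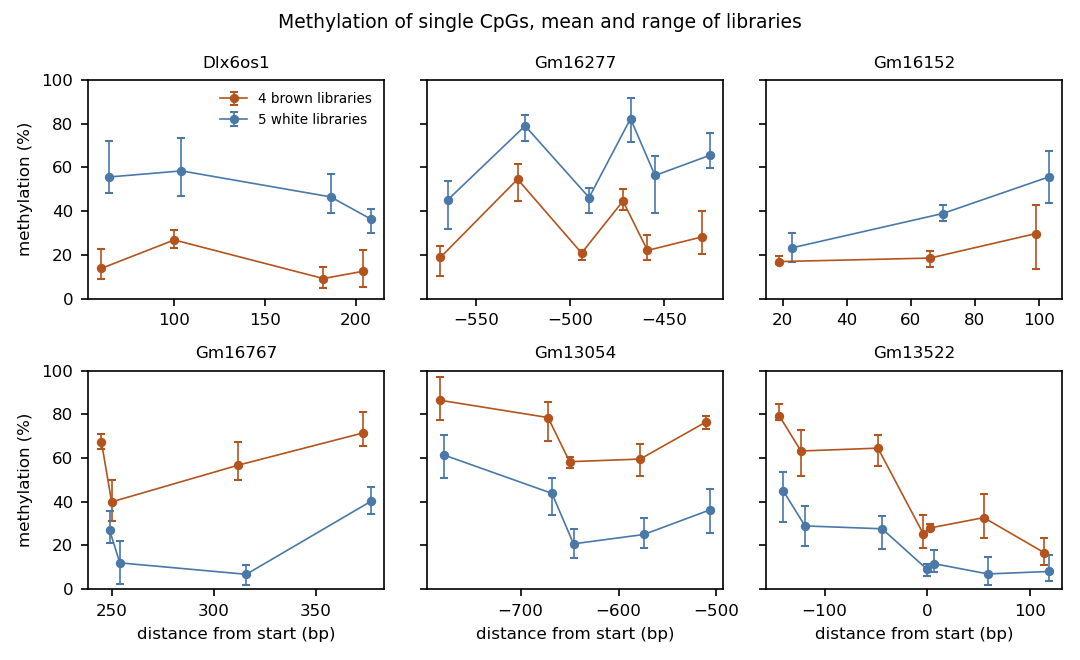
Methylation of single CpGs (y axis, %) against distance from the transcription start (x axis, bp) in 6 called lncRNA promoters; points are means of the 4 brown and the 5 white libraries and bars their lowest and highest library. At Dlx6os1, Gm16277 and Gm16152 the brown means lie below the white ones, and at Gm16767, Gm13054 and Gm13522 above them, at every CpG shown.

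LincRNAs made up 6 of the 14 promoters that were higher in brown, and 685 of all 1279 lncRNA promoters. Gm16767, on chromosome 13 and 126536 bp from the growth-arrest gene Gadd45g, had the widest difference of all lncRNA promoters. It had 61.2, 56.0 and 60.8% in BAT at days 0, 4 and 6 and 52.5% in BAT + NE, against 19.9 and 23.3% in BWAT and 17, 19.5 and 23.7% in WAT. The lowest brown library lay 28.7 points above the highest white one. The log2 methylation ratio was higher in brown by 2.34 ± 0.17 (SE; limma, adjusted p = 0.000325), and all 7 cytosines separated the groups. At the CpG 314 bp downstream of the start brown cells averaged 56.7%, against 6.76% in white cells. The Gadd45g promoter was at 1.13% in brown and 0.718% in white.

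Gm17668 had 34.3, 40.2 and 55.3% in BAT at days 0, 4 and 6 and 60.2% in BAT + NE, against 16.3 and 13.1% in BWAT and 16.6, 16.5 and 13.2% in WAT. Gm17668 was called for cell type (limma, adjusted p = 0.00692). Its BAT libraries were higher at each later day and its WAT libraries were not, with 1 library per day. Its day term was not called (limma, adjusted p = 0.943), and no promoter passed the interaction test given below. Gm17262, in an intron of the nuclear membrane gene Lemd2, had 88.7, 85.4 and 87.8% in BAT at days 0, 4 and 6 and 90.5% in BAT + NE, against 63.4 and 66.3% in BWAT and 60.6, 65.4 and 65.0% in WAT. Its 5 cytosines lay within 18 bp and each separated the groups (limma, adjusted p = 0.000345).

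8430419K02Rik had 2 measured windows on the same gene. The upstream one had 75, 86.3 and 86.8% in BAT at days 0, 4 and 6 and 85.1% in BAT + NE, against 65.3 and 62.5% in BWAT and 64.2, 69.0 and 69.9% in WAT (limma, adjusted p = 0.00756). The other window was low, at 14.4 ± 3.8% in brown and 9.39 ± 0.59% in white (SD, n = 4 and 5), and was not called (limma, adjusted p = 0.321). Both were higher in brown at each of their cytosines.

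D030046N08Rik, also typed lincRNA, starts 533 bp from Fam69c and is the called promoter that shares cytosines with a coding one, 5 of its 12. It averaged 12.2 ± 2.2% in brown and 7.34 ± 1.23% in white (SD, n = 4 and 5), and the Fam69c promoter 13.4 ± 2.2% in brown and 6.93 ± 1.79% in white, which was not called (limma, adjusted p = 0.0679). Without the shared cytosines the log2 difference of D030046N08Rik was 0.54 in place of 0.75, and the call was lost (limma, adjusted p = 0.326). Gm807, the other lincRNA that was lower in brown beside 2610307P16Rik, averaged 59.2 ± 4.0% in brown and 71.7 ± 3.3% in white.

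Processed transcripts are noncoding transcripts outside the other classes. RP23-76I20.1, 50660 bp from 5330426P16Rik, had the widest deficit in brown, with 12.0, 15.7 and 15.7% in BAT at days 0, 4 and 6 and 17.4% in BAT + NE, against 65.0 and 44.2% in BWAT and 49.8, 43.2 and 49.5% in WAT. The groups did not overlap at any of its 3 cytosines (limma, adjusted p = 0.00256). Gm13530 averaged 50.04 ± 6.12% in brown and 65.4 ± 1.2% in white, and Gm15762 61.8 ± 2.6% in brown and 75.5 ± 3.2% in white (SD, n = 4 and 5). Without restriction-site cytosines Gm15762 had a log2 difference of −0.58 in place of −0.90 and was not called (limma, adjusted p = 0.72). Gm13530 held no cytosine in a restriction site and kept −0.90. It was not called in that fit either (limma, adjusted p = 0.0566), where only other promoters had changed.

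Among processed transcripts higher in brown, 4833427F10Rik averaged 63.0 ± 5.6% in brown and 44.8 ± 3.3% in white, B230112J18Rik 59.8 ± 5.4% and 45.1 ± 4.7%, and Gm568 40.6 ± 1.1% and 30.5 ± 1.2% in the same order (SD, n = 4 and 5). RP23-341C5.10, in an intron of the formin gene Fmnl1, held 33 cytosines and averaged 21.1 ± 1.6% in brown and 12.4 ± 1.8% in white. 2700023E23Rik, the gene of the lncRNA Dancr, which is known in human cells for holding back differentiation, rested on 2 cytosines. It had 7.7, 5.2 and 3.6% in BAT at days 0, 4 and 6 and 6.7% in BAT + NE, against 1.85 and 0% in BWAT and 0% at all days in WAT. With a pseudocount of 5 in place of 1 its log2 difference was 1.07 in place of 2.49, still called. The depth behind these values is not known.

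**Figure D4:**
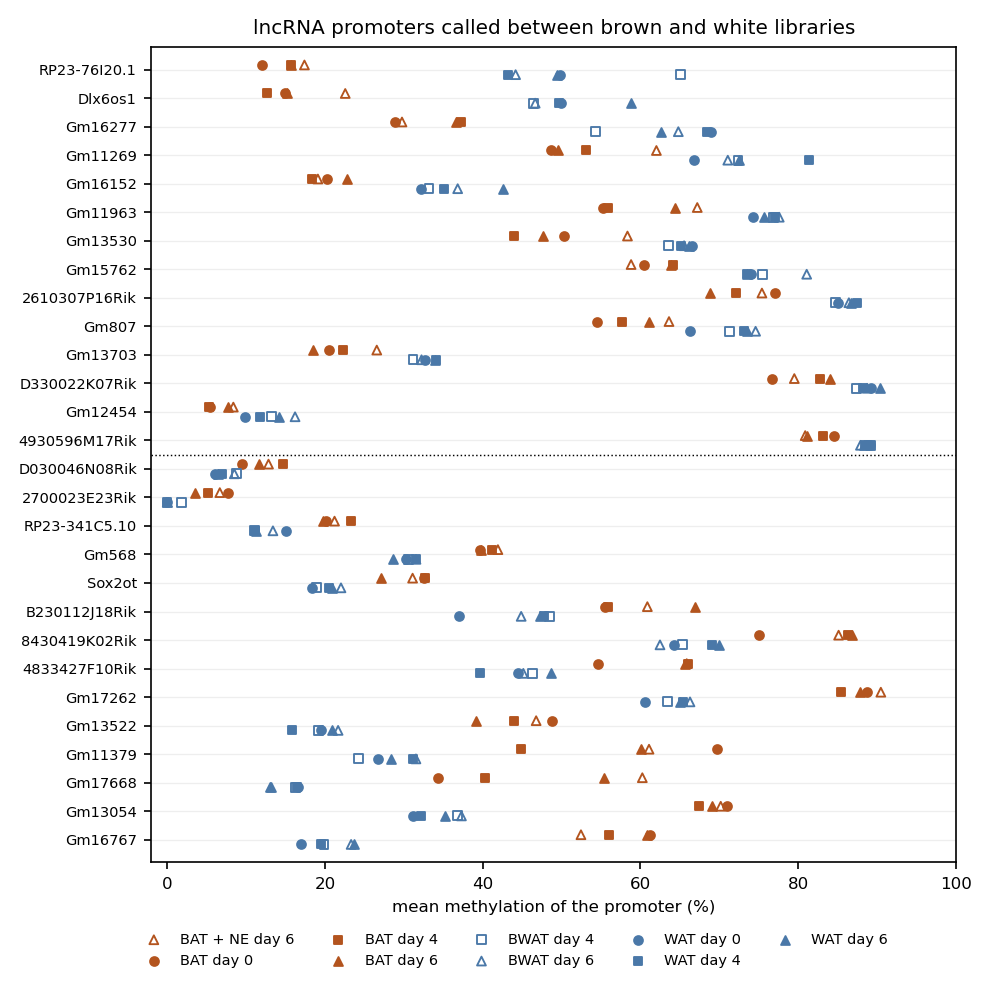
Mean methylation (x axis, %) of the 28 lncRNA promoters called between cell types (rows, ordered by brown minus white), 1 point per library; brown libraries above, white below, with open symbols for NE. In each row the brown and the white points do not overlap, and the dotted line parts the 14 promoters lower in brown from the 14 higher in brown.

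The coding promoters nearest to these lncRNAs were mostly under 10% in both cell types, as coding promoters were in general. The nearest coding start was 533 to 250327 bp from the 28 called promoters, with a median of 28586 bp and 8 within 10000 bp. The promoter of that coding gene was measured for 21 of them, and limma called none of the 21, with 3 at an unadjusted p under 0.05. Of all coding promoters 0.839% were called, and 9.33% of all promoters had an unadjusted p under 0.05. Of the 21, 18 were under 10% in both cell types, and 80.4% of all coding promoters had a mean level under 10%.

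The matched-day pairs gave a view that does not pool libraries. A promoter was called in a pair when at least 2 cytosines differed by 10 percentage points or more and all of these in the same direction, with no test. In the same direction at days 0, 4 and 6, 12 lncRNA promoters were higher in BAT (0.938%, against 0.336% of all promoters) and 13 lower (1.02%, against 0.596%). Of these 25, 16 were also called by limma, all in the same direction. The pair rule and limma share the BAT and WAT libraries.

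The 9 promoters called at all 3 days by the pair rule alone had limma adjusted p of 0.0629 to 0.321. The widest was Gm11974, the gene of the snoRNA host Snhg15, with 35.3, 22.7 and 59.0% in BAT at days 0, 4 and 6 and 20.6% in BAT + NE, against 8.33 and 7.69% in BWAT and 13.3, 5.26 and 8.89% in WAT. Its brown libraries were all higher but spread over 38.3 points, and it rests on 3 cytosines (limma, adjusted p = 0.0737). 4932435O22Rik averaged 39.5 ± 8.0% in brown and 56.2 ± 3.2% in white, 4930406D18Rik 43.6 ± 5.0% and 58.1 ± 2.9%, and 4930403O15Rik, in an intron of the phosphodiesterase gene Pde7b, 43.1 ± 5.0% and 57.5 ± 5.4% in the same order (SD, n = 4 and 5). Gm12968 and AU019990 were also lower in BAT, and Zfp133-ps (a transcribed pseudogene in RefSeq), Gm17619 and the low window of 8430419K02Rik higher.

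Later days and day 0 differed at few lncRNA promoters. In the same limma fit, 2 of 1279 (0.156%) were called between the 7 later libraries and the 2 of day 0, against 0.0522% of all promoters, which is 7 in number. Gm17638 starts in an exon of Eif3d, a translation initiation subunit, on the opposite strand. It had 91.5, 68.1 and 68.9% in BAT at days 0, 4 and 6 and 65.7% in BAT + NE, and 92.1, 72.7 and 75.5% in WAT at the same days with 72.6 and 70.5% in BWAT at days 4 and 6. Every later library lay at least 16.0 points below both day 0 libraries, in brown and white alike. The log2 methylation ratio fell by 2.11 ± 0.14 after day 0 (SE; limma, adjusted p = 0.00183), and this call was lost without WAT day 0 (limma, adjusted p = 0.0656).

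The fall at Gm17638 lay in the 3 upstream CpGs printed above. Their later means were 31.7, 24.9 and 41.9%, against 84.3, 81.4 and 84.0% at day 0. The 5 CpGs from 38 to 172 bp downstream kept 92.7 to 98.6% later and 95.5 to 98.6% at day 0. With the window cut to 500 bp on each side these upstream CpGs are left out, and the promoter was not called (limma, adjusted p = 0.842).

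Gm12992, 1742 bp from Tmem200b, rose. It had 10.6, 27.6 and 33.6% in BAT at days 0, 4 and 6 and 39.6% in BAT + NE, and 7.64, 20.3 and 22.4% in WAT at the same days with 17.7 and 23.0% in BWAT at days 4 and 6. Both day 0 libraries lay below all later ones, and all 16 cytosines were higher later. The log2 methylation ratio rose by 1.76 ± 0.22 (SE; limma, adjusted p = 0.0453). This call was lost without any 1 of the libraries other than BAT + NE, with adjusted p up to 0.525 without BAT day 0. It was also lost on the percent scale, with both strands averaged and with a pseudocount of 5 (limma, adjusted p = 0.208, 0.0779 and 0.0516). Over the libraries of all days the Tmem200b promoter averaged 3.08 ± 0.60% in brown and 3.02 ± 0.62% in white (SD). These means do not set later days against day 0.

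**Figure D5:**
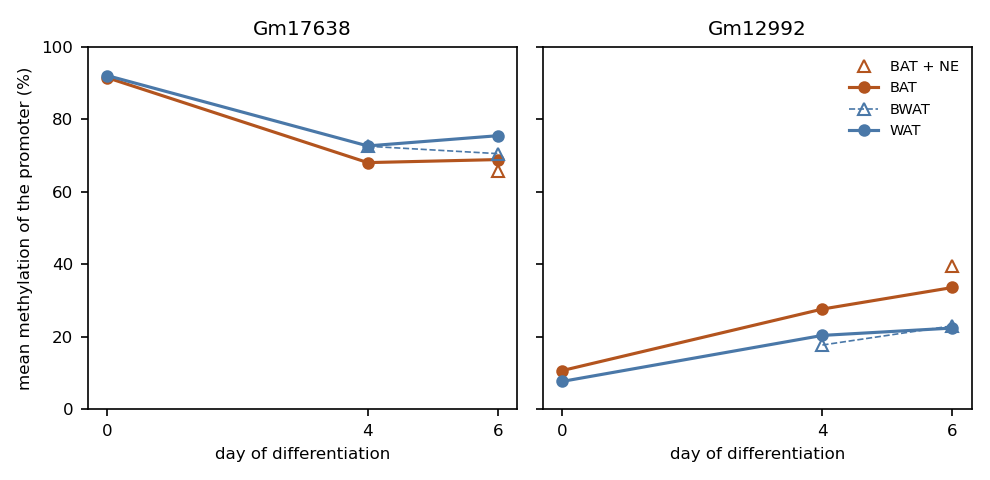
Mean methylation (y axis, %) of the promoters of Gm17638 and Gm12992 against day of differentiation (x axis), 1 library per point, with filled circles for BAT and WAT and open triangles for BAT + NE and BWAT. Gm17638 is at 91.5 and 92.1% at day 0 and between 65.7 and 75.5% later; Gm12992 is at 10.6 and 7.64% at day 0 and between 17.7 and 39.6% later.

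More lncRNA promoters lay higher than lower after day 0, and so did promoters in general. Without overlap between later and day 0 libraries, 68 lncRNA promoters were higher later (5.32%, against 4.97% of all) and 22 lower (1.72%, against 1.63% of all). By the pair rule, day 6 against day 0 in BAT gave 136 higher (10.6%, against 8.65% of all) and 41 lower (3.21%, against 2.33% of all). In WAT the same pair gave 113 higher (8.84%, against 6.75% of all) and 41 lower (3.21%, against 2.5% of all). No promoter of any kind passed the limma test of an interaction between cell type and later days. At an unadjusted p under 0.05 that test gave 63 lncRNA promoters (4.93%), against 4.33% of all promoters.

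Libraries with and without NE differed by pair calls in both directions. BAT + NE against BAT of day 6 gave 70 higher (5.47%, against 4.86% of all) and 80 lower (6.25%, against 5.32% of all). BWAT against WAT gave 56 higher (4.38%, against 4.18% of all) and 66 lower (5.16%, against 3.35% of all) at day 4, and 51 higher (3.99%, against 2.84% of all) and 81 lower (6.33%, against 5.44% of all) at day 6. In the same direction at both days 1 was higher (0.0782%, against 0.268% of all) and 4 lower (0.313%, against 0.41% of all). Each pair is 1 library against 1, so no test was made, and NE cannot be told apart from other differences between the libraries. The paper describes the white preadipocytes differentiated with NE as an independent set.

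Airn was lower in BWAT at both days, at 33.6% against 41.2% in WAT at day 4 and at 41.9% against 48.3% at day 6, while WAT day 0 stood at 50.7% and BAT as low as 31.0%. A930006K02Rik had 15.9 and 13.5% in BWAT against 23.8 and 16.2% in WAT, and Nphs1as, the antisense RNA of the kidney filter gene Nphs1, 9.42 and 9.06% in BWAT against 12.99 and 12.3% in WAT. Gm16725, in an intron of Mcph1, was the promoter with more in BWAT, 85.2 and 88.9% in BWAT against 81.6 and 78.7% in WAT.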

How the data were processed

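For the RRBS libraries the authors cut DNA with MspI and TaqαI, selected fragments by size, treated them with bisulfite and read paired ends. Bowtie and mm9 are named in the processing notes of the submitters. Bowtie's version is not given in the sources used. The authors deposited 1 table with the methylation of each CpG cytosine as a percent, for the 838481 autosomal cytosines with at least 10 reads in all 9 libraries. The table gives percents and no read counts, so depth is unknown beyond that minimum, no interval that needs depth is given, and the Fisher test of reads that the study describes could not be run. Each library is summarised by the same cytosines, which number 29026 (3.46%) in lncRNA promoters.

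Promoter windows came from GENCODE vM1 (NCBIM37), where overlapping windows of 1 gene were merged, and the level was the mean over cytosines (median 15 in lncRNA and 21 in coding promoters). That annotation has no antisense type for genes, so the antisense class was taken from the transcripts of genes not typed lincRNA. RefSeq, matched by symbol or synonym, knew 756 of the 1233 genes, 670 of them as lncRNA and 53 as protein-coding. Sequences were read from NCBIM37.

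Levels were tested with limma 3.58.1 (R 4.3.3) on log2((level + 1)/(100 − level + 1)) over all 13412 promoters, with moderated variances and Benjamini-Hochberg adjustment, and the code was tested on simulated data. The lncRNA promoters named were those called by limma or by the pair rule at all 3 days, the measured genes of the lists, the promoters called after day 0, and the widest with the same NE call at both days in BWAT. The promoters, lists and tests were chosen with earlier results of these data known. Alternatives were other libraries, terms, scales, pseudocounts, windows, cytosine sets and pair thresholds, and leaving out each library.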

Additional observations from a re-analysis of the deposited data

Results flagged for a closer look

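In the 28 called promoters, those of the pair rule and the 2 that changed after day 0, the 4 brown and the 5 white libraries were searched for a library far from the others of its cell type, 78 groups in all. Chance flags about 1 in 20 such groups, and 7 were found. At Gm17638, BAT day 0 (91.5%, the other brown libraries 65.7 to 68.9%) and WAT day 0 (92.1%, the other white libraries 70.5 to 75.5%) stood apart, which is the change after day 0 described above. BAT day 0 was also the lowest brown library at 8430419K02Rik, with 75% against 85.1 to 86.8%, and at 4833427F10Rik, with 54.6% against 65.6 to 66.0%. WAT day 6 was the highest white library at Dlx6os1, with 58.8% against 46.5 to 49.9%. BWAT day 6 was the highest at Gm15762, with 81.1% against 73.5 to 75.4%, and BWAT day 4 the only white library above 0% at 2700023E23Rik, with 1.85%.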

How the results depend on the processing

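Of the brown-white calls at lncRNA promoters, 28 with all 9 libraries, 0 were left with 6 libraries and day as a factor, 6 with 6 libraries and the same terms, and 14 to 19 with any 1 library left out. Other settings gave 19 to 40 calls. At the 37 promoters called between cell types by limma or the pair rule and the 2 called after day 0, no alternative turned the direction. The alternatives reuse the same libraries, and brown and white did not overlap at the 28 limma calls, so this is no separate support. Dlx6os1, RP23-76I20.1, Gm16767, Gm13054 and Gm17262 kept the call in each alternative that measured them other than 6 libraries with day as a factor, where their adjusted p in limma was 0.0931 to 0.114. After day 0, 2 lncRNA promoters were called, against 0 with 6 libraries, 0 to 2 with any 1 library left out, and 1 on the percent scale, with both strands averaged or with the window cut to 500 bp on each side. The pair rule at all 3 days gave 25 promoters, 13 with a difference of 20 points, 13 with at least 3 cytosines, and 38 to 50 with 1 day left out. The median level of 2.01% became 1.55% with at least 5 cytosines, 1.26% without restriction-site cytosines, 1.63% in the shorter window and 12.9% without cytosines of coding promoters, where other sets of promoters are left. The cause of the other shifts was not tested. The authors' minimum of 10 reads could not be varied, since the table gives no depths. The fit with day as a factor is the one that pairs BAT and WAT by day.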
